A study of Mus musculus with 238 samples.

Results

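The 9 genes described here are Pdk4, Angptl4, Cpt1a, Ppara, Ppargc1a, Pck1, G6pc, Fgf21 and Ucp2, which respond to fasting in liver or serve ketone body and glucose production. They were chosen by symbol from the 21076 gene rows of the count table, and each of the 9 symbols had a row. All mice were C57BL/6JN of 19 months, with no genetic change named in the labels. In the diet experiment 5 female mice were restricted in food (aDR in the brain libraries, DR in the liver libraries of the same mouse numbers) and 4 females fed freely (AL). In the plasma experiment 3 males received young mouse plasma (YMP) and 4 males received PBS, both injected behind the eye. RNA was read in bulk from 15 brain regions of both experiments, which gave 131 and 98 libraries, and from 9 livers of the diet experiment, sequenced to check that the restriction worked. Sex and experiment coincide, so the experiments were not compared with each other, and the labels give no sampling time and no duration of either treatment.

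In a fasted mammal the liver switches from storing to burning fat. The nuclear receptor PPAR-alpha, coded by Ppara, senses fatty acids and turns on genes for fatty acid import into mitochondria, ketone body production and the hormone FGF21. The coactivator PGC-1-alpha, coded by Ppargc1a, supports both this programme and glucose production. The brain takes up the resulting glucose and ketone bodies and makes little glucose of its own.

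Library totals ran from 0.606 to 32.4 M counts with a median of 8.44 M, and those of liver from 3.50 to 12.1 M. Values below are CPM (counts scaled to a common library total), scaled by TMM (a factor per library that removes differences in composition) within a comparison unless plain CPM is named. The 9 livers carried hepatocyte RNA, with albumin between 44924 and 68119 plain CPM, against at most 0.489 in any of the 229 brain libraries. Several brain libraries stood apart from their labels. The pons library of aDR mouse 67 held pituitary hormone RNA, with prolactin at 140935 plain CPM against at most 1349 in the pons of its 8 cohort mates. Pons libraries of mice 64, 68 and 77 had 4.23 to 5.83 plain CPM of 4 hindbrain markers, where 11 other pons libraries had 61.5 to 119.6 and that of mouse 67 had 25.7. Among 16 libraries labelled choroid plexus, those of mice 63, 66, 67 and 73 had 26.5 to 116.9 plain CPM of 7 choroid plexus markers, against 222 to 815 in the remaining 12. The hypothalamus library of PBS mouse 72 had 295 plain CPM of 6 hypothalamic peptide markers, against 1238 to 3800.0 in the others. Libraries of corpus callosum and SVZ differed widely in choroid plexus markers, as given further below.

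Gene positions are those of a RefSeq gene table, and strands and exon lengths those of the GENCODE vM21 annotation. Both are on the mouse genome build GRCm38, which the submitters' processing notes name. Pck1 lies at chr2:173153073-173159274 and G6pc at chr11:101367716-101377903, both on the plus strand. Cpt1a is at chr19:3322326-3385735, Ppara at chr15:85734910-85806851 and Ucp2 at chr7:100493337-100499629, all on the plus strand. On the minus strand are Pdk4 at chr6:5483351-5496278, Angptl4 at chr17:33774900-33781575, Ppargc1a at chr5:51454249-52115853 and Fgf21 at chr7:45613890-45615490. RefSeq (GRCm38.p6) held promoter windows for 8 of the 9, all but Angptl4. The 250 bases before the start of Pck1, G6pc and Ucp2 are shown because Pck1 and G6pc are the liver glucose genes and Ucp2 is the member whose brain values differed most with treatment. Capitals mark matches to a CREB half-site (TGACG, or CGTCA on the other strand), a forkhead site (TGTTTNC) or a nuclear receptor half-site (AGGTCA, or TGACCT on the other strand), all searched on both strands.
Pck1: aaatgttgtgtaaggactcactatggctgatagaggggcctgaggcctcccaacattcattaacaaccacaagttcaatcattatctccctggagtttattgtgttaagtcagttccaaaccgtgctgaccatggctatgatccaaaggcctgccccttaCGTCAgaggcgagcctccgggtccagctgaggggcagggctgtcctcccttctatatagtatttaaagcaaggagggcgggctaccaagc
G6pc: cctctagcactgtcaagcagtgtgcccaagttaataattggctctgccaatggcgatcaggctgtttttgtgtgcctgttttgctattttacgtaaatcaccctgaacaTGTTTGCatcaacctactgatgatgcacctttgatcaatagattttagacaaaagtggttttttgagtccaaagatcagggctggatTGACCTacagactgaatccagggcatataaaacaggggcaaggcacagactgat
Ucp2: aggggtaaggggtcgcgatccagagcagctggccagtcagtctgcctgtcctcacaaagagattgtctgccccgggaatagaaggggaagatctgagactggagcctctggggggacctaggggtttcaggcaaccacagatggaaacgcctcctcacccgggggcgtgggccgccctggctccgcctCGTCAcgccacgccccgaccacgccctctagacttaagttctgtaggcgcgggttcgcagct
The Pck1 window is chr2:173152823-173153072, that of G6pc chr11:101367466-101367715 and that of Ucp2 chr7:100493108-100493357. Each was counted back from the start of its RefSeq promoter entry, which for Ucp2 lies inside the gene span above. In Pck1 the CREB half-site begins 90 bases before the start and in Ucp2 it begins 62 bases before. G6pc holds the forkhead letters 141 bases and the nuclear receptor letters 54 bases before its start. Over 32851 mouse promoter windows of this length the CREB half-site occurred in 17.8%, the forkhead letters in 17.8% and the nuclear receptor half-site in 14%. Of the 8 members searched, 5 held the CREB half-site, 1 the forkhead letters and 2 the nuclear receptor half-site. The full PPAR direct-repeat element (0.338% of windows, both strands) and the palindromic glucocorticoid element (0.387%) were in none of the 8 windows, which says only that these letters are not in these windows.

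The liver comparison asks whether restricted mice show a fasting pattern of expression. Mean levels of 8 of the 9 genes were higher in restricted livers, Ucp2 being the exception. At an adjusted p under 0.05 by edgeR's quasi-likelihood test, 0 of the 9 passed, and 26 of 11815 genes tested in liver did (0.22%). Without adjustment 4 members had p under 0.05 (Pck1, Angptl4, Cpt1a and Ppara), and 1074 of all genes did. The all-gene median log2 difference was 0.02, and 52.9% of the tested genes were higher in restricted liver.

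Pck1, the cytosolic phosphoenolpyruvate carboxykinase that commits carbon to glucose production, differed most in fold. Restricted mice 61, 62, 64, 65 and 67 had 2339, 2123, 2822, 2315 and 4552 CPM. Freely fed mice 63, 66, 68 and 69 had 940.0, 1181, 1449 and 1110.3 CPM. All 5 restricted livers were thus above all 4 controls. The means were 2830.2 ± 996 (SD, n = 5) and 1169.9 ± 212 (SD, n = 4), a log2 difference of 1.27 (SE 0.25), with an adjusted p of 0.0768 in edgeR. DESeq2 on the same counts gave a log2 difference of 1.28 and an adjusted p of 0.00013, and edgeR without mouse 67 gave 1.03 and 0.0447. Over all alternatives tried for Pck1 in liver the adjusted p ran from 0.00013 to 0.238.

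G6pc codes the catalytic subunit of glucose-6-phosphatase, which releases free glucose from the hepatocyte. Its CPM were 218, 186, 306, 304 and 725 in the 5 restricted livers in the order above and 107, 203, 164 and 393 in the 4 controls. The groups overlapped, since only mouse 67 exceeded the highest control. The log2 difference was 0.68 (SE 0.45, adjusted p 0.740, edgeR) and was 0.22 without mouse 67 and 1.14 without control mouse 69.

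Cpt1a, the carnitine palmitoyltransferase that admits long-chain fatty acids to liver mitochondria, had 293, 251, 231, 267 and 561 CPM under restriction. Control livers had 210, 155, 197 and 149.6 CPM, all below the lowest restricted liver. Means were 321 ± 136 (SD, n = 5) against 178 ± 29.96 (SD, n = 4), a log2 difference of 0.85 (SE 0.27, adjusted p 0.285, edgeR), which was 0.55 without mouse 67. Pck1 and Cpt1a were the 2 members whose groups did not overlap, in a liver table where 2.36% of genes were higher without overlap and 1.86% lower without overlap.

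Angptl4 codes a secreted inhibitor of lipoprotein lipase that fasting induces. The restricted livers had 58.5, 99.3, 97.9, 91.8 and 148 CPM and the controls 55.7, 61.1, 56.6 and 37.2. Restricted mouse 61 lay within the range of the controls, and the other 4 lay above it. The log2 difference was 0.91 (SE 0.25), with an adjusted p of 0.203 in edgeR and 0.0325 in DESeq2, and the adjusted p ran from 0.0325 to 0.486 over all alternatives.

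Pdk4 codes the kinase that shuts off pyruvate dehydrogenase and so spares glucose. Its liver level was low. Restricted livers had 3.20, 4.23, 5.58, 5.57 and 17.5 CPM, and controls 3.95, 4.62, 2.75 and 4.01. The log2 difference of 0.93 (SE 0.46, adjusted p 0.600, edgeR) rested on mouse 67, without which it was 0.26.

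For the receptor gene Ppara itself the restricted livers had 190.4, 236, 223, 205 and 250.4 CPM and the controls 200.1, 155, 143 and 127. Restricted mouse 61 was below control mouse 63, and the remaining values did not cross. The log2 difference was 0.50 (SE 0.16, adjusted p 0.307, edgeR). Ppargc1a had 20.2, 32.2, 35.6, 19.5 and 26.6 CPM against 16.8, 24.4, 22.6 and 16.1, with overlapping groups and a log2 difference of 0.44 (SE 0.22, adjusted p 0.598, edgeR).

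Fgf21, the hepatokine that PPAR-alpha drives in prolonged fasting, stayed at 1.45 to 5.57 CPM (9 to 43 counts) in all 9 livers. Its means were 3.50 ± 1.83 (SD, n = 5) under restriction and 2.81 ± 1.63 (SD, n = 4) in controls, a log2 difference of 0.28 (SE 0.45, adjusted p 0.941, edgeR), which was 0.07 without mouse 67 and 0.71 without control mouse 66. Ucp2 codes a carrier of the inner mitochondrial membrane related to the uncoupling protein of brown fat. It had 31.3, 30.8, 31.4, 50.4 and 52.9 CPM under restriction and 30.7, 39.7, 75.9 and 39.0 in controls, a log2 difference of -0.23 (SE 0.28, adjusted p 0.910, edgeR). The highest Ucp2 value came from control mouse 68, and without it the difference was 0.11.

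Restricted mouse 67 had the highest liver value in 6 of the 9 genes, namely Pck1, G6pc, Cpt1a, Angptl4, Pdk4 and Ppara. The same mouse was highest in 21.2% of the 11815 genes tested. Kupffer cell markers were lower in restricted livers in 4 of 4 genes and blood markers in 5 of 5, none passing the test, and the summed Kupffer markers ran from 72.3 to 311 plain CPM under restriction and from 162 to 523 in controls. The 8 hepatocyte markers summed to 92222 to 113260 plain CPM under restriction and 84422 to 96831 in controls. In bulk tissue, fewer cells of a type and less RNA per cell cannot be told apart, and the part of these shifts in the gene differences was not tested.

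**Figure D1:**
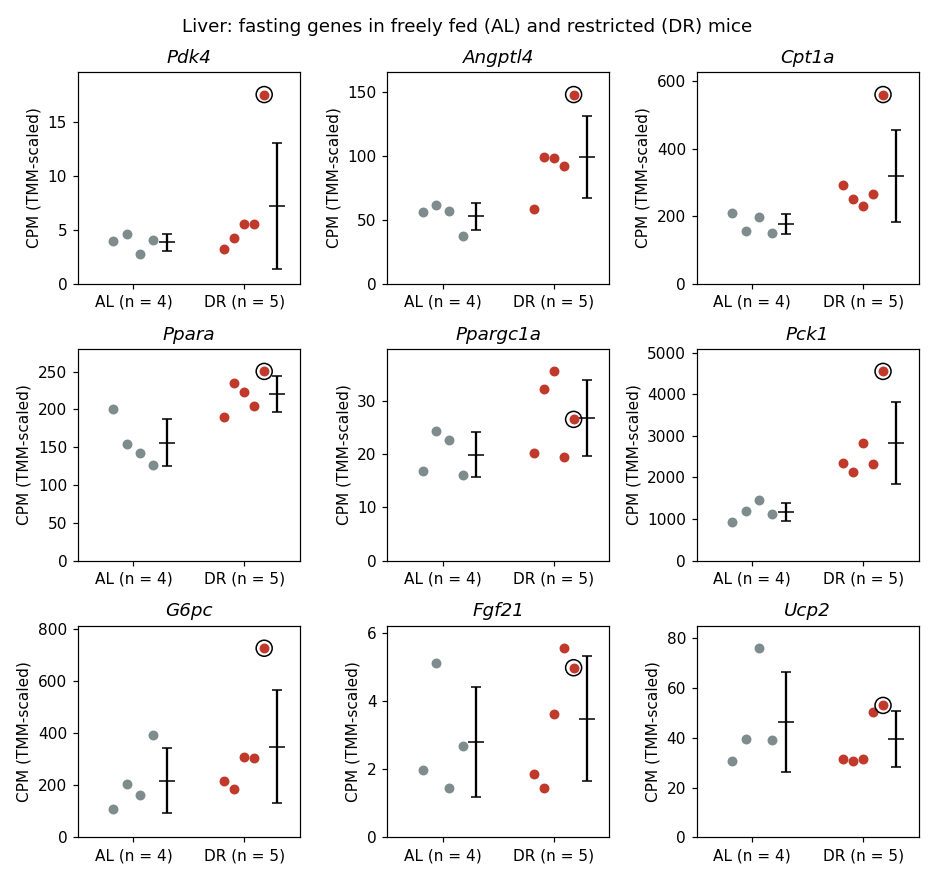
CPM (TMM-scaled, linear axes from 0) of each of the 9 genes in liver, 1 point per library, with the mean and SD of each group beside the points and mouse 67 circled. Pck1 and Cpt1a show no overlap between the 5 restricted and 4 freely fed livers, and mouse 67 is the highest point in 6 panels.

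The other genes of these pathways were followed in lists chosen by function, and in liver none of their members passed the test in edgeR. Of 35 tested genes of fatty acid oxidation and PPAR-alpha targets, 33 were higher in restricted liver, with a median log2 difference of 0.37 and an unadjusted p under 0.05 for 8, all higher. The smallest p-values in that list belonged to Eci2, an enoyl-CoA isomerase, with 0.64 (SE 0.16, adjusted p 0.140), and to Acot4, a peroxisomal thioesterase, with 0.87 (SE 0.27, adjusted p 0.276). Among the 21 gluconeogenesis genes 20 were higher, with a median of 0.29, led by the transcription factor Foxo1 at 0.50 (SE 0.13, adjusted p 0.157) and the serine dehydratase Sds at 0.83 (SE 0.22, adjusted p 0.192).

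Fed-state lipogenesis, the opposite programme, had 13 of 15 genes lower, with a median of -0.58 and 5 at an unadjusted p under 0.05. Its leading genes were Pnpla3, a lipid droplet protein induced by feeding, at -1.63 (SE 0.37, adjusted p 0.113) and the acetyl-CoA carboxylase Acacb at -0.61 (SE 0.21, adjusted p 0.338). Ketone body genes showed a smaller median, 0.16, with 7 of 10 higher. The monocarboxylate transporter Slc16a7 stood at 0.47 (adjusted p 0.438).

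Among PPAR and PGC-1 partners 12 of 14 were higher, with a median of 0.13. Lpin1, a phosphatidate phosphatase and coactivator, had 1.05 (SE 0.19, adjusted p 0.0672), and the nuclear receptor Esrra had 0.64 (SE 0.14, adjusted p 0.101). In the lipase list, where Angptl4 acts, 4 of 11 were higher. The endothelial lipase Lipg had 0.87 (SE 0.17, adjusted p 0.0768) and the hepatic lipase Lipc -0.52 (adjusted p 0.436). For the pyruvate dehydrogenase complex and its regulators, on which Pdk4 acts, 9 of 10 were higher with a median of 0.10, the phosphatase Pdp2 at 0.34 (adjusted p 0.681) and the regulatory subunit Pdpr at 0.26 (adjusted p 0.794) having the smallest p-values. The FGF21 receptor genes had 2 of 5 higher, with Fgfr1 at 0.64 (adjusted p 0.501) and Fgfr3 at -0.18 (adjusted p 0.905), and 2 of 3 tested mitochondrial carriers related to Ucp2 were higher, Slc25a30 at 0.24 (adjusted p 0.924) and Slc25a27 at 0.22 (adjusted p 0.937). All p-values of these lists are edgeR's, adjusted over the 11815 genes.

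Per kilobase of exon, the 9 genes ranked differently in liver and brain. In freely fed livers Pck1 led at 349 ± 67.3 plain CPM per kb (SD, n = 4), followed by G6pc at 91.1 ± 49.7, Ppara at 41.6 ± 8.53, Cpt1a at 23.8 ± 4.00 and Angptl4 at 15.3 ± 3.43. Ucp2 had 6.78 ± 2.99, Ppargc1a 3.11 ± 0.74, Fgf21 3.05 ± 1.86 and Pdk4 1.117 ± 0.24. In the median brain region of control mice Ppargc1a led at 11.4 plain CPM per kb, then Ucp2 at 4.94, Cpt1a at 3.87, Pdk4 at 1.92, Ppara at 1.06 and Angptl4 at 0.73. Lengths are those of all annotated exons merged, and the annotation the authors counted on is not given in the sources used here.

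Pck1, G6pc and Fgf21 were at the limit of detection in brain and could not be tested there in either experiment. Pck1 had a count in 18 of 229 brain libraries, at most 4 counts in 1 library, in the hypothalamus of PBS mouse 80. G6pc had a count in 13 libraries, at most 3, and Fgf21 in 21, at most 5. In a library of median size 3 counts correspond to 0.354 plain CPM, the most that a count of 0 allows. Over all brain libraries together, 27 Pck1 counts came to 0.0131 plain CPM, 22 G6pc counts to 0.0106 and 42 Fgf21 counts to 0.0203. These few counts were not spread evenly. For Pck1 11 of 27 lay in hypothalamus, where 5 libraries had one, and for G6pc 7 of 22 lay in olfactory bulb and 6 in hypothalamus. Of the Fgf21 counts, 22 of 42 lay in cerebellum, where 9 libraries had one, and 12 in the anterior and posterior hippocampus, 3 and 9. Intervals and limits of this kind cover counting error only, because amplified reads without molecular identifiers are not independent molecules.

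The remaining 6 genes had counts in all 229 brain libraries, and their levels differed between regions in control mice. An edgeR test over the 15 regions with the mouse as a block called 6 of 6, and 99.6% of all genes tested. Ppargc1a was highest in olfactory bulb, at 143.7 ± 9.75 plain CPM (SD, n = 8), above medulla at 86.8 ± 19.4 (SD, n = 8), and lowest in corpus callosum at 53.6 ± 6.25 (SD, n = 6). The lowest olfactory bulb library, 130.9, exceeded the highest medulla library, 125, and that was the only neighbouring pair among 14 in its order without overlap.

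Ucp2 ranged widest, from 76.6 ± 16.9 plain CPM in hypothalamus (SD, n = 7) to 11.7 ± 1.52 in motor cortex (SD, n = 8), a ratio of 6.55. Choroid plexus at 60.4 ± 24.8, corpus callosum at 57.6 ± 35.3 and SVZ at 48.8 ± 35.4 followed hypothalamus, with far larger SDs than motor cortex or posterior hippocampus (13.3 ± 1.58). These levels pool both experiments, and the order within each differed: hypothalamus was first in both, but SVZ ranked 9 of 15 in AL mice (31.4 ± 16.1) and 4 in PBS mice (66.1 ± 43.2), and corpus callosum 5 and 2. Some of the control corpus callosum and SVZ libraries held much choroid plexus marker RNA, as given further below. Its part in the Ucp2 levels of these regions was not tested. Angptl4 ran from 7.65 ± 1.65 in olfactory bulb (SD, n = 8) through hypothalamus at 6.10 ± 1.27 and entorhinal cortex at 4.94 ± 1.14 down to 1.38 ± 0.79 in caudate putamen, a ratio of 5.55.

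Cpt1a was highest in SVZ at 47.8 ± 16.3, medulla at 47.7 ± 8.06, corpus callosum at 46.3 ± 16.9 and choroid plexus at 44.5 ± 14.2 plain CPM, and lowest in entorhinal cortex at 20.3 ± 2.06. The same 4 regions led in each experiment, with medulla first in AL mice (43.8 ± 9.39) and SVZ first in PBS mice (56.4 ± 18.3). The part of choroid plexus RNA in the Cpt1a levels of SVZ and corpus callosum was not tested either. Pdk4 was likewise highest in SVZ, at 11.7 ± 2.12, and corpus callosum, at 11.3 ± 1.13, and lowest in olfactory bulb at 4.46 ± 0.78. Ppara varied least, from 6.71 ± 1.35 in olfactory bulb to 3.51 ± 0.71 in pons, a ratio of 1.91. For Ucp2, Angptl4, Cpt1a, Pdk4 and Ppara every one of the 14 neighbouring pairs of regions overlapped in range, so only regions far apart in the order are distinct.

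**Figure D2:**
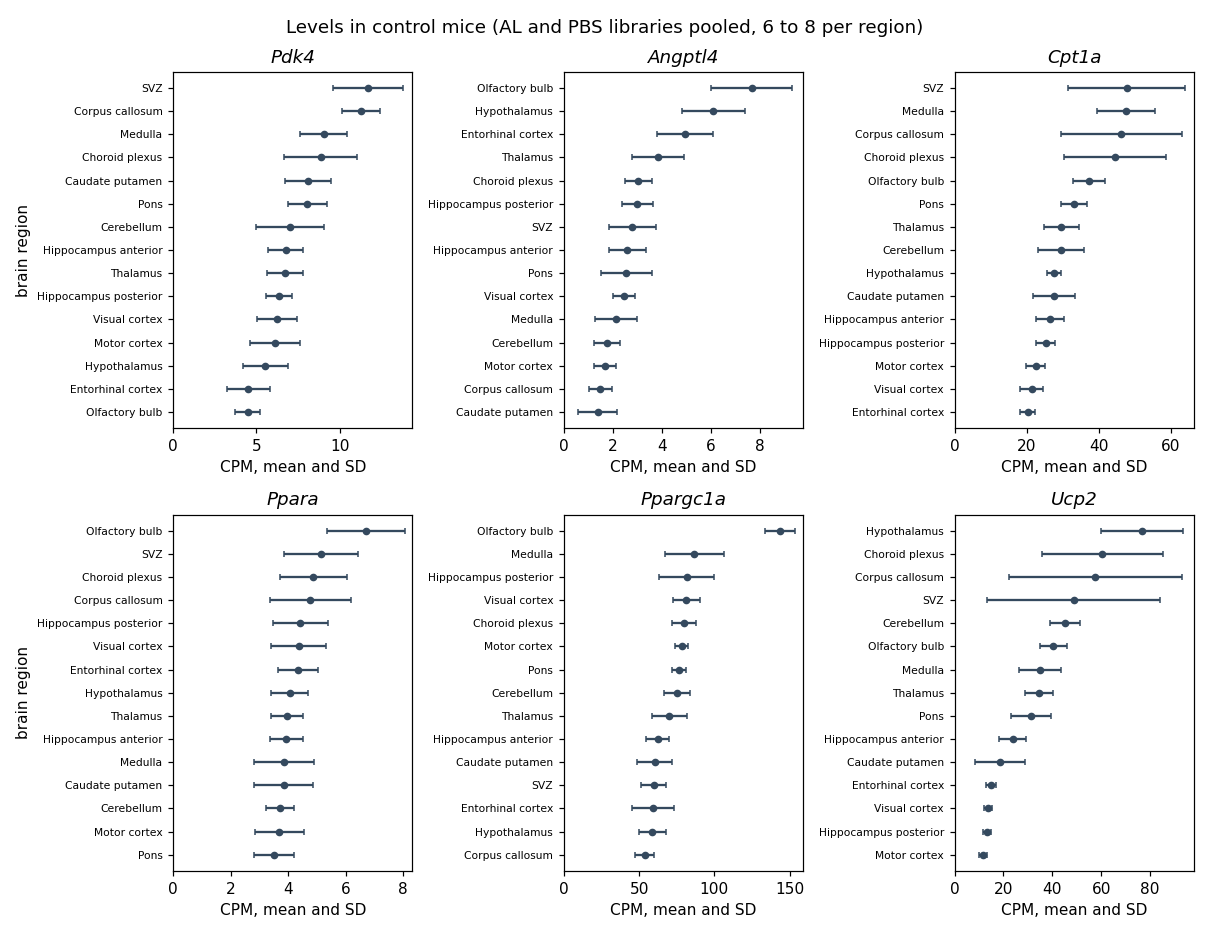
Mean and SD of plain CPM in control libraries (AL and PBS pooled, 6 to 8 per region) for the 6 genes with counts in every brain library, regions ordered by mean within each panel. Ucp2 is highest in hypothalamus (76.6) and Ppargc1a in olfactory bulb (143.7), the latter clear of all other regions.

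Over the 30 control groups (15 regions in each experiment) the genes with the most similar regional pattern were found by Pearson's r of mean log2 CPM among 14251 genes. For Ucp2 they were Acacb (0.90), Scara5 (0.87) and Bdh2 (0.87). For Cpt1a they were Sept10 (0.90), Itprid2 (0.90) and Elovl7 (0.89), and for Pdk4 Ctsa (0.90), Sgk1 (0.88) and Slain1os (0.87). Ppargc1a was most like Kcnab3os (0.86), Kcnab3 (0.86) and Spats2 (0.85), Angptl4 like Nav1 (0.85), Tex15 (0.82) and Tmem35a (0.80), and Ppara like Btbd1 (0.75), Sox4 (0.74) and Baiap2l2 (0.73). These are descriptions, since groups of the same mice share animals and regions share cell types.

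Within single brain regions, restriction gave no call among the 6 tested genes. Of 90 tests (6 genes in 15 regions) 0 passed at an adjusted p under 0.05 in edgeR, and 0.0525% of the tests over all genes did. By region the share of genes called was 0.251% in motor cortex, 0.22% in olfactory bulb, 0.202% in visual cortex, 0.0524% in cerebellum, 0.0215% in corpus callosum, 0.0212% in SVZ, 0.0146% in caudate putamen, 0.00714% in medulla and 0.00707% in choroid plexus, and 0% in the remaining regions. Without adjustment 9 of the 90 had p under 0.05, 4 of them for Ucp2 and 3 for Angptl4, where 6.24% of all gene by region tests did, and the alternatives with DESeq2, other scalings, no filter or 1 mouse left out gave 0 calls as well. By direction, Angptl4 was higher in aDR mice in 15 of 15 regions, Ucp2 in 14, Cpt1a in 13, Ppara in 12, Ppargc1a in 11 and Pdk4 in 9. Without mouse 67 these counts were 9, 12, 10, 10, 10 and 6 in the same order. Regions share mice and are not independent, so these counts carry no test.

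**Figure D3:**
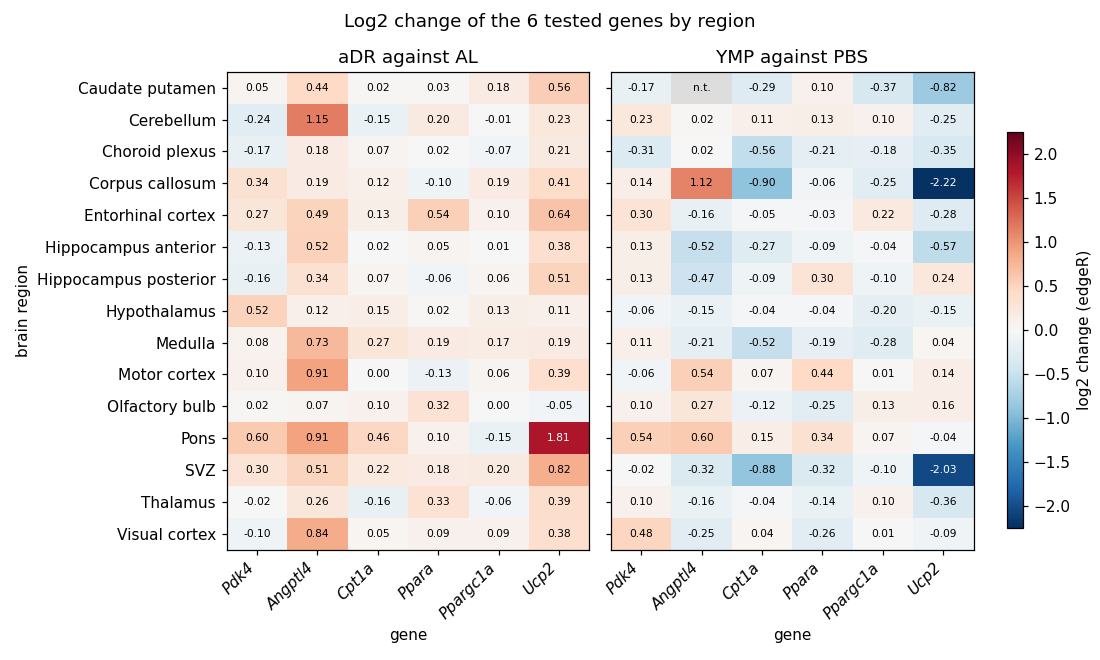
Log2 difference (edgeR) of the 6 tested genes in 15 brain regions, aDR against AL on the left and YMP against PBS on the right, red for higher and blue for lower in treated mice, n.t. for not tested. Angptl4 and Ucp2 are mostly red on the left, and on the right the darkest cells are Ucp2 in corpus callosum (-2.22) and SVZ (-2.03).

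Averaged over regions, each mouse gave a brain value on the log2 CPM scale, adjusted for the regions it was sampled in. In the diet experiment limma called 273 of 15616 genes (1.75%) and 0 of the 6 members. Ucp2 came closest. Its values were 5.24, 5.03, 4.97, 4.96 and 5.47 in aDR mice 61, 62, 64, 65 and 67, and 4.48, 4.70, 4.86 and 4.95 in AL mice 63, 66, 68 and 69. No aDR mouse fell below an AL mouse, although mouse 65 (4.96) and mouse 69 (4.95) nearly met, and 4.16% of all genes were higher without overlap and 4.14% lower. The difference was 0.39 (SE 0.12, adjusted p 0.124, limma). A voom fit on all libraries with the mouse as a block gave 0.37 and an adjusted p of 0.0331, within a range of 0.00430 to 0.307 over the alternatives for this gene.

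By region, posterior hippocampus gave the clearest separation of Ucp2. The 5 aDR libraries had 17.7, 20.1, 19.7, 18.1 and 25.5 CPM and the 4 AL libraries 12.4, 14.9, 15.7 and 14.3. All 5 were above all 4, as for 0.968% of genes there, with a log2 difference of 0.51 (SE 0.13, adjusted p 0.9996, edgeR, unadjusted p 0.00272). The largest Ucp2 difference, 1.81 in pons, rested on the library with pituitary RNA, which had 415 CPM against 26.8 to 60.8 in the other 8. Without that library and those of mice 64 and 68 the pons difference was 0.20 (adjusted p 0.886, edgeR), a setting chosen after seeing the data. Without the pons library of mouse 67 the brain value of Ucp2 differed by 0.34 (adjusted p 0.0886, limma).

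In diet SVZ, 7 of 7 choroid plexus markers were higher in aDR mice (median log2 difference 0.91). In corpus callosum 6 of 7 were (0.22) and in choroid plexus 6 of 7 (0.14), with none called in the 3 regions. Ucp2 differed there by 0.82, 0.41 and 0.21, in that order, without passing in edgeR. As examples from corpus callosum, aDR mouse 61 had 86.4 CPM of Ucp2 and 773 plain CPM of the 7 plexus markers. AL mouse 66 had 78.6 and 873, while AL mouse 63 had 19.5 and 12.2. The other libraries of that region are not listed here, and the part of the markers in the Ucp2 difference was not tested. With choroid plexus, corpus callosum and SVZ left out, the difference in the brain value of Ucp2 was 0.35 and did not pass (adjusted p 0.307, limma).

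The Angptl4 brain value in the diet experiment turned on 1 animal, and cerebellum held the largest regional difference without that animal. The brain values of aDR mice 61, 62, 64 and 65 were 1.81, 1.57, 1.77 and 1.46, and those of the AL mice 1.61, 1.74, 1.62 and 1.54, in the order above. These 8 values overlapped, and mouse 67 stood at 2.99. The difference was 0.29 (SE 0.25, adjusted p 0.618, limma) and 0.03 without mouse 67 (adjusted p 0.903, limma).

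Mouse 67 had the highest Angptl4 value of all diet mice in 15 of 15 brain regions and in liver. Without this mouse Angptl4 was higher in aDR mice in 9 of 15 regions, with a median log2 difference of 0.02, and no region passed in edgeR (smallest adjusted p 0.231). Cerebellum held the largest regional difference. There aDR mice 61, 62, 64, 65 and 67 had 2.30, 3.14, 2.22, 2.251 and 7.38 CPM and AL mice 63, 66, 68 and 69 had 1.35, 1.46, 1.75 and 1.55. All 5 restricted mice were above all 4 controls, as for 2.14% of genes tested there, with a log2 difference of 1.15 (SE 0.39, adjusted p 0.239, edgeR) and 0.68 without mouse 67 (SE 0.23, adjusted p 0.231). The next largest increases without mouse 67 were 0.49 in visual cortex (SE 0.27, adjusted p 0.525, edgeR) and 0.42 in motor cortex (SE 0.30, adjusted p 0.742, edgeR). In anterior hippocampus mouse 67 had 11.4 CPM, where the other 8 mice had 0.75 to 3.21. In entorhinal cortex the values were 15.7 against 4.74 to 6.80 and in hypothalamus 10.4 against 3.82 to 7.41. The smallest lead was in caudate putamen, with 4.12 against 0.71 to 3.16. Angptl4 was the only gene of 15616 for which 1 and the same diet mouse was highest in all 15 regions (0.0064%). Mice 61 and 64 had libraries from 14 regions and mouse 68 from 13, so these 3 could not reach that count. Ucp2 was highest in mouse 67 in 10 of 15 regions, a count that 38 genes (0.243%) reached or exceeded. Cpt1a and Ppara were highest in this mouse in 4 regions each, and Pdk4 and Ppargc1a in 2 each.

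**Figure D4:**
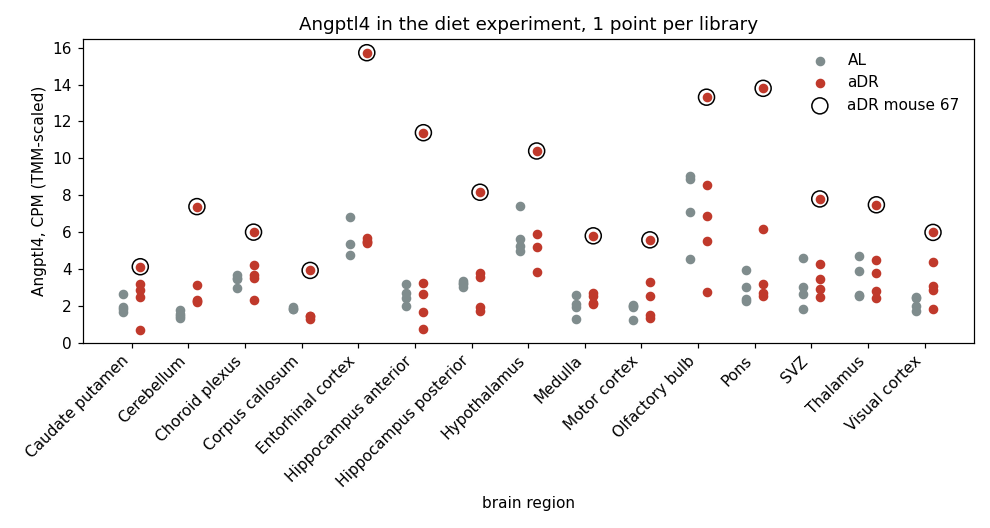
Angptl4 in CPM (TMM-scaled) in the diet experiment, 1 point per library by brain region, AL in grey, aDR in red and aDR mouse 67 circled. The circled point is the highest in each of the 15 regions, from 3.92 CPM in corpus callosum to 15.7 in entorhinal cortex, and of the 58 other aDR points 28 lie within the AL range of their region, 18 above it and 12 below it.

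As brain values, differences of the remaining members were small. Within regions the log2 differences ran from -0.24 to 0.60 for Pdk4 and from -0.16 to 0.46 for Cpt1a, both highest in pons. They ran from -0.13 to 0.54 for Ppara and from -0.15, in pons, to 0.20 for Ppargc1a. Without mouse 67, whose pons library held pituitary RNA, the pons differences were 0.08 for Pdk4, 0.09 for Cpt1a and 0.05 for Ppargc1a. The highest for Ppara was in entorhinal cortex (SE 0.18, adjusted p 0.9997, edgeR, unadjusted p 0.0155). For Cpt1a the brain value differed by 0.08 (SE 0.06, adjusted p 0.503), for Pdk4 by 0.06 (SE 0.08, adjusted p 0.758), for Ppara by 0.05 (SE 0.07, adjusted p 0.794) and for Ppargc1a by 0.04 (SE 0.06, adjusted p 0.792), all by limma. Set against liver in the same mice, the liver minus brain difference was 0.70 for Cpt1a (SE 0.25, adjusted p 0.446), 0.58 for Angptl4 (SE 0.25, adjusted p 0.607), 0.47 for Ppara (SE 0.19, adjusted p 0.558) and -0.58 for Ucp2 (SE 0.25, adjusted p 0.615). It was 0.56 for Pdk4 (SE 0.39, adjusted p 0.820) and 0.36 for Ppargc1a (SE 0.24, adjusted p 0.810). None of the 6 members passed this limma test of the difference, which called 8 of 11350 genes (0.0705%), so a change particular to liver was not shown for any of them. Nor was a difference of the diet effect between brain regions shown, since the F test of edgeR called 2 of 15616 genes (0.0128%) and gave all 6 members an adjusted p of 1.

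Some pathway genes outside the 9 did pass in the brain values of the diet experiment, all with small differences. Of all genes tested there, limma called 1.75%, and 46.6% were higher in aDR mice. In the gluconeogenesis list 12 of 17 tested were higher and 2 were called. These were the transcription factors Klf15, higher by 0.38 (SE 0.04, adjusted p 0.00348), and Cebpb, higher by 0.27 (SE 0.05, adjusted p 0.0216). In fatty acid oxidation 22 of 33 were higher. The thiolase Acaa2 was the 1 gene called there and rose by 0.16 (SE 0.03, adjusted p 0.0439). Pnpla2, the lipase that starts the breakdown of stored fat, rose by 0.35 (SE 0.07, adjusted p 0.0284). It was the 1 call among 8 of the lipase list, of which 4 were higher.

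Of 10 ketone body genes 5 were higher. The transporter Slc16a7 alone was called and fell by 0.18 (SE 0.03, adjusted p 0.0184). In lipogenesis Dgat2, which makes triglyceride, rose by 0.21 (SE 0.04, adjusted p 0.0214), and the elongase Elovl6 fell by 0.16 (SE 0.03, adjusted p 0.0406). These were the 2 calls among 14, of which 4 were higher. The FGF21 receptor list had 0 calls among 3, with Fgfr3 at 0.18 (adjusted p 0.0651) and Fgfr2 at -0.31 (adjusted p 0.191), and the PPAR partners, the pyruvate dehydrogenase list and the mitochondrial carriers had 0 calls among 15, 11 and 4. The smallest p-values there belonged to Ppard at 0.13 (adjusted p 0.309) and Pprc1 at 0.07 (adjusted p 0.352), to the kinase Pdk2 at 0.06 (adjusted p 0.303) and the subunit Pdhx at 0.06 (adjusted p 0.395), and to Slc25a14 at -0.05 (adjusted p 0.563) and Ucp3 at 0.04 (adjusted p 0.834). All these p-values are limma's. Blood markers were higher in aDR brain values in 5 of 5 (median 0.93, 0 called), endothelial markers lower in 4 of 6 (median -0.19, 2 called) and microglial markers lower in 6 of 6 (median -0.05, 1 called), and their part in these differences was not tested. Within single regions edgeR called Klf15 in visual cortex (0.44, adjusted p 0.0453), Fgfr3 in olfactory bulb (0.33, adjusted p 0.0455), Fgfr2 in cerebellum (-0.60, adjusted p 0.03003) and Lpl, the lipase that ANGPTL4 inhibits, in motor cortex (-0.60, adjusted p 0.0185). The share of all genes called was 0.202% in visual cortex, 0.22% in olfactory bulb, 0.0524% in cerebellum and 0.251% in motor cortex.

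In the plasma experiment 0 of 89 tests of the 6 members within regions passed in edgeR, against 0.0127% over all genes (0.184% in corpus callosum, 0.00738% in cerebellum and 0% elsewhere), and Angptl4 in caudate putamen was under the count filter. Ucp2 and Cpt1a were lower in YMP mice in 11 of 15 regions each. Without adjustment Ucp2 had p under 0.05 in 5 regions in edgeR and Cpt1a in 3. Pdk4, Angptl4 and Ppargc1a had it in 1 region each, and 6.11% of all gene by region tests did. Those of Ucp2 were corpus callosum and SVZ, described next, anterior hippocampus (-0.57, adjusted p 0.683), thalamus (-0.36, adjusted p 0.9997) and cerebellum (-0.25, adjusted p 0.482). In corpus callosum Ucp2 had 15.0 and 17.1 CPM in YMP mice 77 and 81 and 110.1, 70.5 and 42.9 in PBS mice 76, 80 and 84. The log2 difference was -2.22 (SE 0.38, adjusted p 0.0792, edgeR). In SVZ the 3 YMP mice had 17.4, 18.5 and 15.1 CPM and the 4 PBS mice 134, 67.5, 39.6 and 29.3, a difference of -2.03 (SE 0.50, adjusted p 0.154, edgeR). Neither region showed overlap, and 12.6% of genes in corpus callosum and 6.89% in SVZ were likewise lower without overlap.

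Cpt1a in the same libraries had 27.0 and 29.3 CPM in YMP corpus callosum against 67.8, 48.9 and 39.8 under PBS (-0.90, SE 0.23, adjusted p 0.237, edgeR). In SVZ it had 36.8, 30.2 and 28.1 CPM against 86.8, 57.6, 40.9 and 43.8 (-0.88, SE 0.27, adjusted p 0.222, edgeR). In medulla, where the choroid plexus markers described next summed to at most 33.7 plain CPM, Cpt1a had 33.96, 42.9 and 31.5 CPM against 55.8, 55.1, 46.6 and 49.6 (-0.52, SE 0.12, adjusted p 0.438, edgeR). In all 3 regions the YMP and PBS libraries did not overlap, nor in choroid plexus (-0.56, SE 0.28, adjusted p 0.9996, edgeR). The share of genes lower without overlap was 4.58% in medulla and 3.05% in choroid plexus. In medulla the markers of other cell types were also lower under YMP, none called: 6 of 6 for microglia (median -0.44), 6 of 6 for leptomeningeal fibroblasts (-1.05), 6 of 6 for endothelium (-0.21), 5 of 5 for oligodendrocytes (-0.28) and 5 of 5 for astrocytes (-0.19). Their part in the Cpt1a difference was not tested. DESeq2 called Ucp2 in corpus callosum (-2.21, adjusted p 9.66e-07) and SVZ (-1.99, adjusted p 0.000886) and Cpt1a in SVZ (-0.87, adjusted p 0.0497). In corpus callosum edgeR called both genes with no count filter or without PBS mouse 84, and Ucp2 alone without PBS mouse 76 (-1.81, adjusted p 0.0307).

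The choroid plexus markers Kcne2, Folr1, Kl, Aqp1, Clic6, Cldn2 and Otx2 moved with both genes. Their summed level in corpus callosum was 8.82 and 19.2 plain CPM in YMP mice against 1339, 762 and 361 in PBS mice. In SVZ it was 30.4 to 53.6 plain CPM in YMP mice against 268 to 1451 in PBS mice. Among libraries labelled choroid plexus, YMP mouse 73 had 26.5 plain CPM of these markers and 12.2 CPM of Ucp2, whereas YMP mouse 77 had 764 and 100.5. In the brain values of the plasma experiment 7 of 7 plexus markers were lower under YMP, with a median of -1.16 and 0 calls. The part of the markers in the Ucp2 and Cpt1a differences was not tested.

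**Figure D5:**
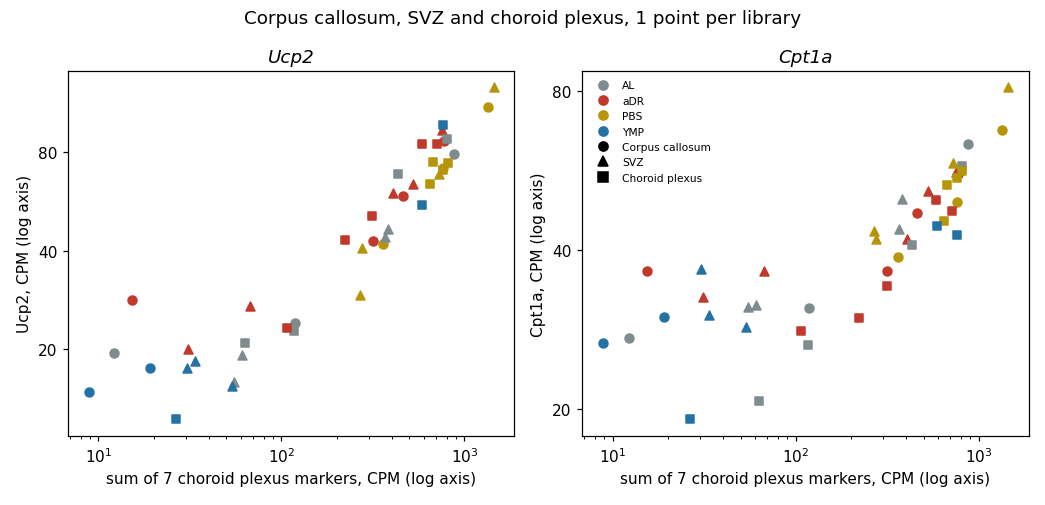
Plain CPM of Ucp2 (left) and Cpt1a (right) against the summed plain CPM of 7 choroid plexus markers, both axes on a log scale, 1 point per library of corpus callosum, SVZ and choroid plexus from both experiments. Libraries rich in the markers are high in both genes, and the YMP libraries of corpus callosum and SVZ lie at the lower left.

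As brain values, Ucp2 stood at 4.31, 4.602 and 4.55 in YMP mice 73, 77 and 81 and at 4.91, 5.07, 4.88 and 4.804 in PBS mice 72, 76, 80 and 84. The difference was -0.43 (SE 0.08, adjusted p 0.276, limma). For Cpt1a the values were 4.74, 4.82 and 4.78 against 5.06, 5.05, 4.86 and 4.98, a difference of -0.21 (SE 0.06, adjusted p 0.402, limma). Both genes were without overlap, as were 5.34% of all genes in that direction and 4.72% in the other, and limma called 0 of 15768 genes (0%), with 1317 at an unadjusted p under 0.05. A voom fit with the mouse as a block called both, Ucp2 at -0.56 (adjusted p 0.0454) and Cpt1a at -0.32 (adjusted p 0.0195), and the adjusted p over all alternatives ran from 0.00192 to 0.947 for Ucp2 and from 0.00069 to 0.947 for Cpt1a. With choroid plexus, corpus callosum and SVZ left out the differences were -0.18 for Ucp2 and -0.09 for Cpt1a.

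Whether the plasma effect differed between regions was tested by the F test of edgeR, which called 130 of 15768 genes (0.824%). The test had no mouse term, so libraries of 1 mouse entered as if independent. Ucp2 was called (adjusted p 0.0216), and Cpt1a was not (adjusted p 0.0839), nor were Angptl4 (adjusted p 0.873) and Pdk4, Ppara and Ppargc1a (each 1). The adjusted p of Ucp2 was 0.378 without corpus callosum and 1 without corpus callosum, SVZ and choroid plexus. It was 0.0896 to 0.983 when mouse 72, 76, 77, 80 or 81 was left out. Of 11 alternatives for Ucp2, 4 kept the call, among them a fit with the mouse as a block, and 7 lost it.

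For the other 4 members the plasma differences of the brain value were 0.09 for Pdk4 (SE 0.09, adjusted p 0.806), 0.03 for Angptl4 (SE 0.17, adjusted p 0.964), -0.01 for Ppara (SE 0.09, adjusted p 0.985) and -0.04 for Ppargc1a (SE 0.06, adjusted p 0.838), all by limma. The Angptl4 values of YMP mice 73, 77 and 81 were 1.03, 1.81 and 1.60, on both sides of the PBS range of 1.26 to 1.53. In the plasma brain values 48.2% of all genes tested were higher under YMP. Of 33 tested genes of fatty acid oxidation 29 were lower under YMP, with a median of -0.09 and 8 at an unadjusted p under 0.05, all lower. Acadl, a long-chain acyl-CoA dehydrogenase, had the smallest p in that list at -0.16 (SE 0.04, adjusted p 0.367, limma), followed by Cpt2, which acts after Cpt1a, at -0.23 (SE 0.09, adjusted p 0.571, limma).

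Lipogenesis genes were lower in 11 of 14, with Acacb, whose regional pattern was the most like that of Ucp2, at -0.41 (SE 0.10, adjusted p 0.386, limma) and Srebf1 at -0.17 (adjusted p 0.552, limma). In the gluconeogenesis list 12 of 18 were higher, Klf15 standing at 0.29 (adjusted p 0.459, limma) and G6pc3, the ubiquitous phosphatase related to G6pc, at -0.16 (adjusted p 0.357, limma). Ketone body genes were lower in 7 of 10, with Slc16a6 at -0.28 (adjusted p 0.514, limma) and Slc16a1 at -0.15 (adjusted p 0.585, limma). Among PPAR partners 8 of 15 were higher, with Esrrb at -0.58 (adjusted p 0.465, limma) and Pprc1 at 0.13 (adjusted p 0.620, limma). The pyruvate dehydrogenase list had 5 of 11 higher, with the kinases Pdk1 at -0.08 (adjusted p 0.594, limma) and Pdk2 at -0.06 (adjusted p 0.636, limma). In the lipase list 4 of 8 were higher, with Mgll at 0.07 (adjusted p 0.741, limma) and Lipe at 0.06 (adjusted p 0.817, limma). The FGF21 receptors had 1 of 4 higher, with Fgfr2 at -0.13 (adjusted p 0.527, limma) and Fgfr1 at -0.07 (adjusted p 0.757, limma), and the carriers 2 of 4, with Slc25a14 at 0.10 (adjusted p 0.563, limma) and Slc25a27 at 0.07 (adjusted p 0.672, limma). No gene of any list was called in the plasma brain values.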

How the data were processed

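RNA-seq libraries of 15 brain regions and liver were analysed from a table of raw counts per gene that the authors deposited. Per the labels' protocols, column-purified RNA was amplified by Smart-Seq2 and made into Nextera XT libraries, which do not mark strand, so reads of a gene and of an antisense partner cannot be told apart. Per the submitters' processing notes, Trim Galore 0.3.7, STAR 2.5.3a, DESeq2 and the build GRCm38 were used. The counting program and annotation are not given in the sources used here. Members and lists were chosen with earlier results of these data known.

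Counts were tested in R 4.3.3 with edgeR 4.0.16 (TMM, quasi-likelihood, filterByExpr with a minimum count of 10 and total of 15), within each tissue. A brain value per mouse was the mouse coefficient from a linear model of log2 CPM with terms for region and mouse (prior count 2), tested with limma 3.58.1 with a trend, as was the liver minus brain difference. Differences of a treatment effect between regions, in both experiments, used an edgeR F test with terms for region and treatment. It had no mouse term, so libraries of 1 mouse entered as if independent. P-values were Benjamini-Hochberg adjusted over all genes tested, with a threshold of 0.05. DESeq2 1.42.0, voom with the mouse as a block, other scalings, filters and leaving out each mouse were alternatives. The edgeR and limma steps were run on simulated data in which libraries were drawn independently and the changed genes had high counts. Shared mice and genes of low count were not covered by it.

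Each mouse number marks 1 animal across its regions and liver. Libraries of 1 mouse deviated from their group means with a mean correlation of 0.040 (diet) and 0.072 (plasma), against -0.0049 and -0.012 for different mice. No pair among 357 replicate pairs agreed within sampling noise (lowest chi-square per degree of freedom 1.29). All members were named in every comparison that tested them. From each list every called gene was named, at most 6 by smallest p, or the 2 with the smallest p where none was called. One gene that this rule names in liver is not reported here. Genes alike in pattern were the 3 with the highest r among those averaging at least 1 CPM.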

Additional observations from a re-analysis of the deposited data

Results flagged for a closer look

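In 36 groups of 4 or 5 mice (9 genes in liver, 6 as brain values), 7 had a value apart from the rest by Dixon's test, where chance gives about 1 in 20, or 1.8. In liver 4 of these were restricted mouse 67, with 4552 CPM of Pck1 (others 2123 to 2822), 725 CPM of G6pc (186 to 306), 561 CPM of Cpt1a (231 to 293) and 17.5 CPM of Pdk4 (3.20 to 5.58). The same mouse had an Angptl4 brain value of 2.99 where the other aDR mice had 1.46 to 1.81. Among PBS mice the Angptl4 brain value of mouse 76 was 1.26 (others 1.49 to 1.53), and the Ppara brain value of mouse 80 was 2.03 (others 2.17 to 2.19). The plasma difference of Ucp2 varied between brain regions by the F test of edgeR, which had no mouse term (adjusted p 0.0216, 0.000982 to 1 over the alternatives).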

How the results depend on the processing

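Of 485 values recomputed under alternatives, 401 were kept, 334 of them among 363 values of single genes. A single-gene value was kept if it stayed on its side of the threshold, with its direction where it had one. A count of calls was kept if it stayed within 1.5 times. Of the rest, 7 lost and 10 gained a call, 12 changed sign, and 55 counts moved by over 1.5 times or to or from 0. In liver DESeq2 called 224 genes, and leaving out 1 mouse 7 to 55. Member calls within plasma regions were 3 with DESeq2, 2 with no count filter and 0 to 2 with 1 mouse left out. Genes called in the diet brain values were 144 without a trend, 165 with no count filter, 129 without choroid plexus, corpus callosum and SVZ, and 52 to 311 with 1 mouse left out. With the mouse as a replicate block voom called 1474 in the diet and 486 in the plasma brain values, and without the block 2760 and 2629; plasma gave 0 to 2 with 1 mouse left out. Liver minus brain without pairing by mouse called 74, and 0 to 31 with 1 mouse left out. For the diet difference between regions 1 gene was called without corpus callosum and 1 without all 3 regions (0 to 3 with 1 mouse left out). For plasma these were 10 and 2, with 196 without choroid plexus and 3 to 155 with 1 mouse left out. Signs changed for Ucp2 in liver (-0.39 to 0.11 with 1 mouse left out), for the Angptl4 plasma brain value (-0.13 to 0.26, -0.076 and -0.032 by voom with and without block, -0.0096 without corpus callosum) and for that of Ppara (-0.048 to 0.068, 0.010 without choroid plexus, 0.029 without the 3 regions). The cause was not tested. Leaving out the 3 regions together, or 4 pons libraries, was chosen after seeing the data. Low counts limit Fgf21 in liver and Pck1, G6pc and Fgf21 in brain, and 2 to 5 mice per group limit every test.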
